A study of Arabidopsis thaliana with 21 samples.

Results

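The 10 genes followed here encode activators and enzymes of indole glucosinolate and camalexin synthesis in Arabidopsis thaliana. They were taken as a fixed set of locus identifiers, with earlier results of these data known, and all 10 were among the 25263 genes of the deposited table: MYB34 (AT5G60890), MYB51 (AT1G18570), CYP79B2 (AT4G39950), CYP79B3 (AT2G22330), CYP83B1 (AT4G31500), UGT74B1 (AT1G24100), SOT16 (AT1G74100), CYP81F2 (AT5G57220), CYP71A13 (AT2G30770) and PAD3 (AT3G26830). All passed the filter of a mean normalized count of at least 1.

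The study asked how over-expression of inositol phosphorylceramide synthase, the enzyme that transfers an inositol phosphate head group to ceramide, changes the seedling transcriptome. Lines At1++ and At1+ carried an AtIPCS1 transgene, At2++ and At2+ an AtIPCS2 transgene, and At3++ and At3+ an AtIPCS3 transgene, each in the Col-0 background and each in the vector pK7WG2, whose cauliflower mosaic virus promoter is active in most plant tissues. Each group was a single transformed line, and the wild type Col-0 was the control. RNA came from untreated whole seedlings, 10 days old, grown on agar medium at 20 °C with 16 h of light and 8 h of dark. There were 3 libraries per group, but replicates 1 and 2 labelled At3+ held identical values and were counted as 1 sample, so that At3+ had n = 2. The study calls the libraries of a line technical triplicates and treats the lines of an isoform as its biological replicates, so the p-values here measure technical spread within single lines.

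The libraries held 12733113 to 17210244 reads on genes, and each value is a normalized count, that is, the reads of a gene divided by the size factor of its library. Normalized counts are not per length, so levels are compared within a gene only. The targeted transcript was checked first: AtIPCS1 averaged 45370.1 in At1++ and 17726 in At1+, against 172 in Col-0. AtIPCS2 averaged 12631 in the libraries labelled At2++ and 22612 in those labelled At2+, against 823 in Col-0, and AtIPCS3 averaged 5802 in those labelled At3++ and 11933 in those labelled At3+, against 57.7 in Col-0. For these 2 isoforms the mean transcript level was thus higher in the libraries labelled with a single plus sign. For AtIPCS3 the difference did not reach an adjusted p under 0.05 in the limma fit described below, with n = 2 in At3+. The lines are named below by their labels alone.

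Markers of seedling tissues moved with the lines. The summed level of 4 seed storage and oil body genes was 9679 to 10372 in At1++, 748 to 1204 in At1+, 1180 to 1286 in At2++, 1948 to 2395 in At2+, 4004 to 5065 in At3++ and 214 to 331 in At3+, against 11.2 to 13.9 in Col-0. All 4 were called higher in every line, and 1 of them, SESA4, was at 0 in every Col-0 library. The summed level of 7 clock genes was 3361 to 3537 in At1++, 6185 to 6344 in At1+, 2664 to 2929 in At2++, 2945 to 3285 in At2+, 3506 to 3534 in At3++ and 4458 to 4468 in At3+, against 6877 to 6987 in Col-0. The 20 root markers summed to 29802 to 51577 in the lines, against 26849 to 27468 in Col-0, and the 8 leaf markers to 466890 to 1014468 in the lines, against 431253 to 477202 in Col-0. The sums hide mixed directions. Of the root markers, 4 were called higher and 3 lower in At1++, 4 and 2 in At2++, and 4 and 1 in At2+ and in At3++. None was called in At1+ or At3+. Of the leaf markers, 1 was called lower in every line, and 0 to 2 were called higher. Of all genes, 0.594 to 5.9% were called per direction and line. No root or leaf marker was at 0 throughout a group. Chloroplast-encoded genes took 0.0502 to 0.99% of the reads in the lines, against 0.033 to 0.0687% in Col-0. The part of these markers in the results below was not tested, and in whole seedlings fewer cells of a type and less RNA per cell cannot be told apart.

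Both pathways start from tryptophan. CYP79B2 and CYP79B3, a pair of cytochromes P450, convert it to indole-3-acetaldoxime, which CYP83B1, UGT74B1 and SOT16 carry on to the indole glucosinolate core, whereas CYP71A13 and PAD3 lead it to camalexin, the main phytoalexin of this species. Indole glucosinolates are stored and broken down on wounding or pathogen attack, camalexin is made on attack, and MYB34 and MYB51 are transcription factors of the MYB family that activate the glucosinolate branch.

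The sequences just before the gene starts are shown for the members that held the first motif searched below, and for the pair CYP79B2 and CYP79B3. They come from the RefSeq annotation of the TAIR10.1 assembly, since the deposited table names genes but gives no coordinates. In the 250 bases before each annotated gene start, both strands were searched for TTGAC, the core of the W-box that WRKY factors bind, and for the G-box CACGTG. The W-box core was found in 3 of the 10 members, MYB51, CYP81F2 and CYP71A13, against 44.9% of the windows of 27443 protein-coding genes. No member held the G-box, against 6.49% of those windows, so no match of one motif overlapped the other. A match is a description of the letters, not a binding site. MYB51 lies on chromosome 1 from 6389399 to 6391386, and CYP81F2 on chromosome 5 from 23187840 to 23189902, both on the plus strand with 3 exons. These genes fell together in At1++ and At2++, as given below. Their windows carry the W-box cores in capitals, TTGAC on the printed strand or GTCAA where the core is on the other strand.
MYB51, chr1:6389149-6389398, plus strand: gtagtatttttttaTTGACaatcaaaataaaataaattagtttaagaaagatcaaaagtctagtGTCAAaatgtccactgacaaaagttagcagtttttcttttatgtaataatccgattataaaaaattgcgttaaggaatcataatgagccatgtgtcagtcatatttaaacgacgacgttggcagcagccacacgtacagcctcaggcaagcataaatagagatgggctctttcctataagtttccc
CYP81F2, chr5:23187590-23187839, plus strand: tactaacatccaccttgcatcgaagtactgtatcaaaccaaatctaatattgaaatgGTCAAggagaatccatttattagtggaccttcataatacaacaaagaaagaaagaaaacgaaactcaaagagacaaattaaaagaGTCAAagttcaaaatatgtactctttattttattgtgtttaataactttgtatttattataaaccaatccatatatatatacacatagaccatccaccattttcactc
CYP71A13 is on the minus strand of chromosome 2 from 13109909 to 13111988, with 4 exons, and its model begins at the start codon, so only the 30 bases around its 2 W-box cores are shown.
CYP71A13, chr2:13112107-13112136, minus strand: aaaaTTGACgtcctgcactaTTGACagaaa
The windows of CYP79B2 (chromosome 4, 18525042 to 18527602, 3 exons) and CYP79B3 (chromosome 2, 9488413 to 9491404, 2 exons), both on the plus strand, shared a run of 22 identical letters, which is in capitals. Over the 62 bases printed, 48 letters were equal.
CYP79B2, chr4:18524945-18525006, plus strand: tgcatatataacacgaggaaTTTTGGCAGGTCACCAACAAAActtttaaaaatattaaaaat
CYP79B3, chr2:9488242-9488303, plus strand: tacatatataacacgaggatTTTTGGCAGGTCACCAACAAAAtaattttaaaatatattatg

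Each line was set against Col-0 in 1 limma fit over all 22222 genes past the filter, on log2(normalized count + 1), and to be called a gene needed both a limma p below 0.05 after Benjamini-Hochberg adjustment and a log2 fold change of 1 or more in size. A gene is said to have risen or fallen where the adjusted p alone was under 0.05. The comparisons share the Col-0 libraries and are therefore not independent of each other. In At1++, 0 of the 10 members were called higher and 2 lower, against 4.06% and 5.02% of all genes. In At1+ none was called in either direction, against 1.78% higher and 1.96% lower of all genes. That 0 was also the count with edgeR and with DESeq2, while 4 members were higher and 1 lower at an unadjusted p under 0.05 in limma. In At2++, 0 were called higher and 2 lower, against 5.9% and 4.91% of all genes. In At2+, 2 were called higher and 2 lower, against 4.76% and 2.69%. In At3++, 1 was called higher and 1 lower, against 4.04% and 2.31%. In At3+, 1 was called higher and 0 lower, against 0.594% and 1.18%. No more than 2 members were thus called in any direction in a line. The limma counts of 0 for members higher in At1++ and At2++ and lower in At3+ were also 0 with edgeR and DESeq2, and stood beside 2, 4 and 0 members at an unadjusted p under 0.05. By adjusted p alone, 2 rose and 6 fell in At1++, against 19.8% and 19% of all genes. Of the 10, 4 rose and 1 fell in At1+, against 14.4% and 13.2% of all genes. Of the 10, 4 rose and 4 fell in At2++, against 25.8% and 26.2% of all genes, and 5 rose and 4 fell in At2+, against 22.6% and 21.5% of all genes. Of the 10, 5 rose and 2 fell in At3++, against 20.4% and 18.1% of all genes, and 5 rose and 0 fell in At3+, against 4.94% and 4.37% of all genes. The median log2 fold change over the members was -0.50 in At1++ and 0.20 in At1+. It was -0.073 in At2++ and 0.10 in At2+, and it was 0.26 in At3++ and 0.32 in At3+, against a median over all genes tested between -0.015 and 0.0059. The members therefore did not move as a block, and are described step by step.

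**Figure D1:**
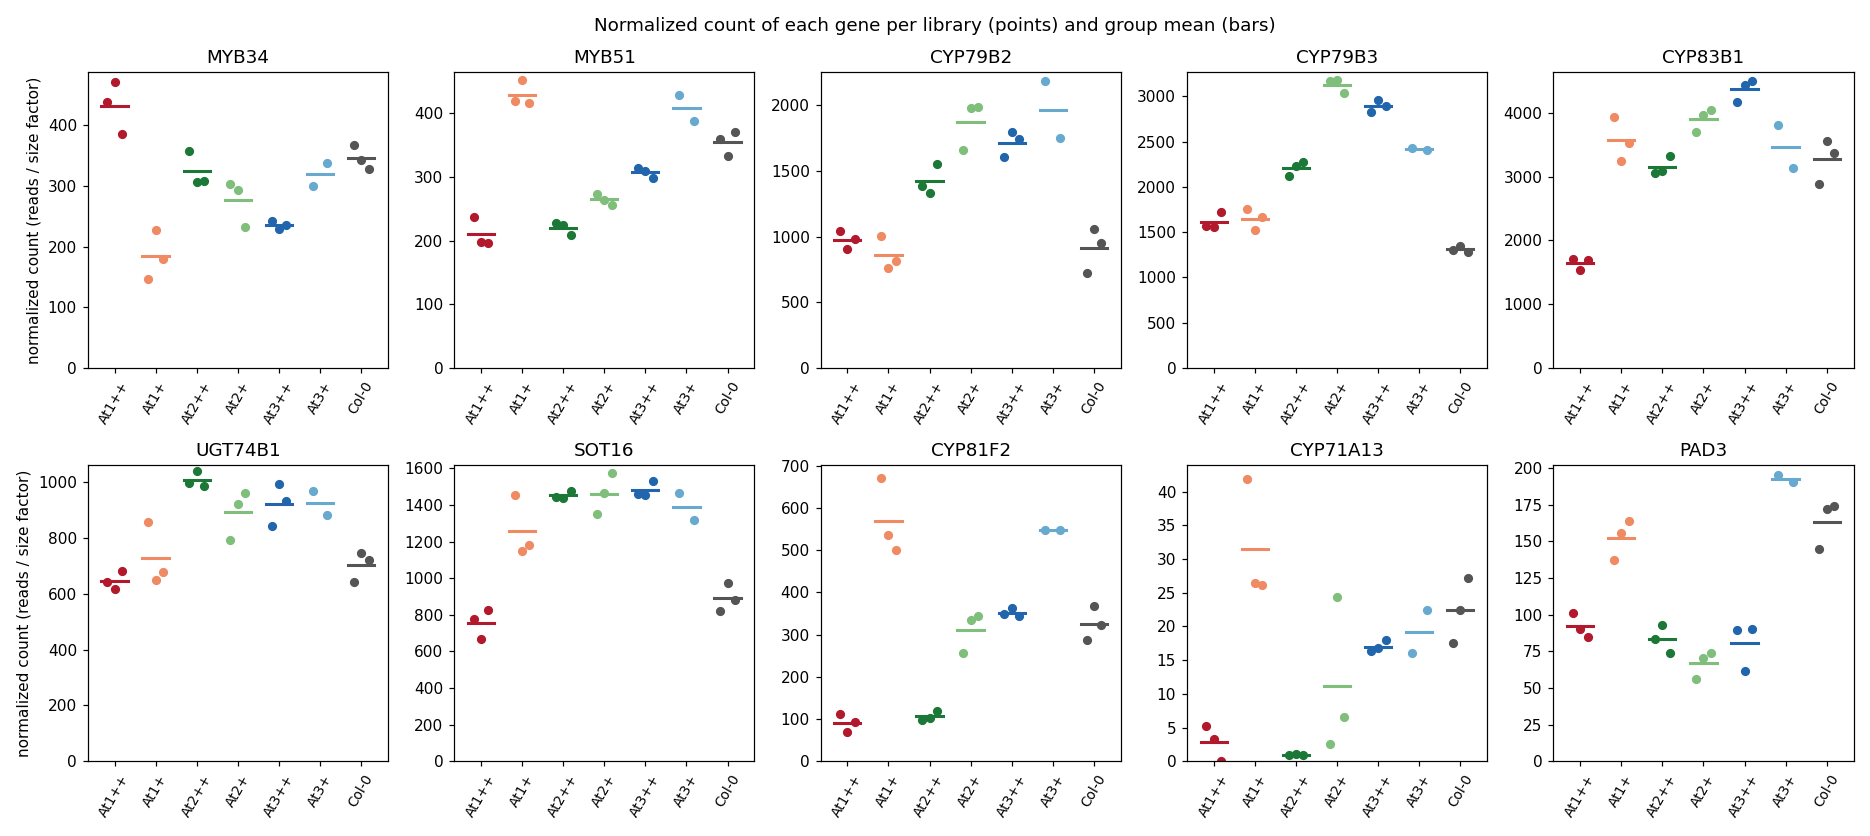
Normalized count of each of the 10 genes (vertical axis, reads divided by the size factor, linear from 0) in each library (points) with the group mean (bar), for the 6 lines and Col-0 (n = 3, At3+ n = 2). CYP79B3 is above every Col-0 library in each line, CYP81F2 is lowest in At1++ and At2++, and PAD3 is below Col-0 in 4 lines.

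The activators MYB34 and MYB51 moved in opposite directions in the AtIPCS1 lines. MYB34 had 438, 471 and 385 normalized counts in At1++ and 147, 227 and 180.0 in At1+. It had 358, 306 and 307 in At2++, 302, 293 and 232 in At2+, 243, 228 and 236 in At3++ and 300.1 and 337 in At3+, against 367, 343 and 328 in Col-0. Every At1+, At2+ and At3++ library was below the Col-0 range, every At1++ library was above it, and At2++ and At3+ overlapped it. MYB34 fell in At1+ with a log2 fold change of -0.92 (standard error 0.12, adjusted p = 2.48e-06), in At3++ with -0.55 (standard error 0.12, adjusted p = 0.000853) and in At2+ with -0.33 (adjusted p = 0.0291), and rose in At1++ with 0.31 (adjusted p = 0.0435). The change was -0.10 (adjusted p = 0.53) in At2++ and -0.12 (adjusted p = 0.701) in At3+. The values for At1++ and At2+ rested on single libraries: without At1++ replicate 1 or 2 or Col-0 replicate 2 or 3 the MYB34 adjusted p in At1++ was 0.0969, 0.174, 0.0899 and 0.138. Without At2+ replicate 3 or Col-0 replicate 1 or 2 the MYB34 adjusted p in At2+ was 0.196, 0.103 and 0.0568. Without At1+ replicate 2 the MYB34 change in At1+ was -1.08 and was called.

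MYB51 had 236, 198 and 196 normalized counts in At1++, 418, 452 and 416 in At1+, 227, 224 and 208 in At2++ and 273, 264 and 257 in At2+. In At3++ it had 314, 309 and 298 and in At3+ 428 and 388, against 359, 333 and 371 in Col-0. No line overlapped Col-0: At1+ and At3+ stood above it, and the other lines below it. MYB51 fell in At1++ by a log2 fold change of -0.75 (standard error 0.082, adjusted p = 5.19e-08), in At2++ by -0.68 (standard error 0.082, adjusted p = 1.49e-07) and in At2+ by -0.42 (adjusted p = 0.000181), and rose in At1+ by 0.28 (adjusted p = 0.0128). The values for At3++, -0.20 (adjusted p = 0.0517), and At3+, 0.21 (adjusted p = 0.187), did not pass. With edgeR the MYB51 adjusted p in At3++ was 0.0331, and without Col-0 replicate 2 it was 0.0381. Without At1+ replicate 2 or Col-0 replicate 2 the MYB51 adjusted p in At1+ was 0.0614 and 0.0693.

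CYP79B2 and CYP79B3, which make the indole-3-acetaldoxime that both branches use, had the largest rises among the 10 members. CYP79B3 had 1566, 1556 and 1718 normalized counts in At1++, 1756, 1529 and 1667 in At1+, 2123, 2231 and 2278 in At2++ and 3169, 3176 and 3033 in At2+. It had 2829, 2957 and 2891 in At3++ and 2435 and 2413 in At3+, against 1299, 1349 and 1283 in Col-0. Every library of every line was above every Col-0 library, with the AtIPCS1 lines nearest to it. CYP79B3 rose in all 6 lines, by a log2 fold change of 1.25 (standard error 0.059, adjusted p = 1.6e-14) in At2+ and 1.14 (standard error 0.059, adjusted p = 1.17e-13) in At3++, where it was called, and by 0.89 (adjusted p = 7.71e-10) in At3+, 0.75 (adjusted p = 1.18e-10) in At2++, 0.33 (adjusted p = 0.000142) in At1+ and 0.30 (adjusted p = 0.000245) in At1++. It was the only member of the 10 that rose in every line, and it kept that direction and an adjusted p under 0.05 against Col-0 under all the alternatives run.

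CYP79B2 had 1046, 903 and 981 normalized counts in At1++ and 1006, 762 and 814 in At1+, both of which overlapped Col-0. It had 1387, 1329 and 1552 in At2++, 1662, 1977 and 1990.0 in At2+, 1606, 1795 and 1744 in At3++ and 2182 and 1749 in At3+, against 721, 1055 and 954 in Col-0. All libraries of the AtIPCS2 and AtIPCS3 lines were thus above the Col-0 range. CYP79B2 was called higher in At3+, with a log2 fold change of 1.12 (standard error 0.13, adjusted p = 1.6e-06), and in At2+, with 1.06 (standard error 0.12, adjusted p = 6.04e-08), and rose by 0.93 (adjusted p = 6.18e-07) in At3++ and 0.66 (adjusted p = 3.83e-05) in At2++. In At1++ it was 0.12 (adjusted p = 0.462) and in At1+ -0.073 (adjusted p = 0.692). The calls lie close to the fold of 1: without Col-0 replicate 1, the lowest Col-0 library, the CYP79B2 changes in At3+ and At2+ were 0.96 and 0.90, and without At3+ replicate 1 the change in At3+ was 0.96. Without Col-0 replicate 2 CYP79B2 was called in At3++ too, at 1.04. The coding sequences of CYP79B2 and CYP79B3 are 78.2% identical with a longest identical run of 32 bases.

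**Figure D2:**
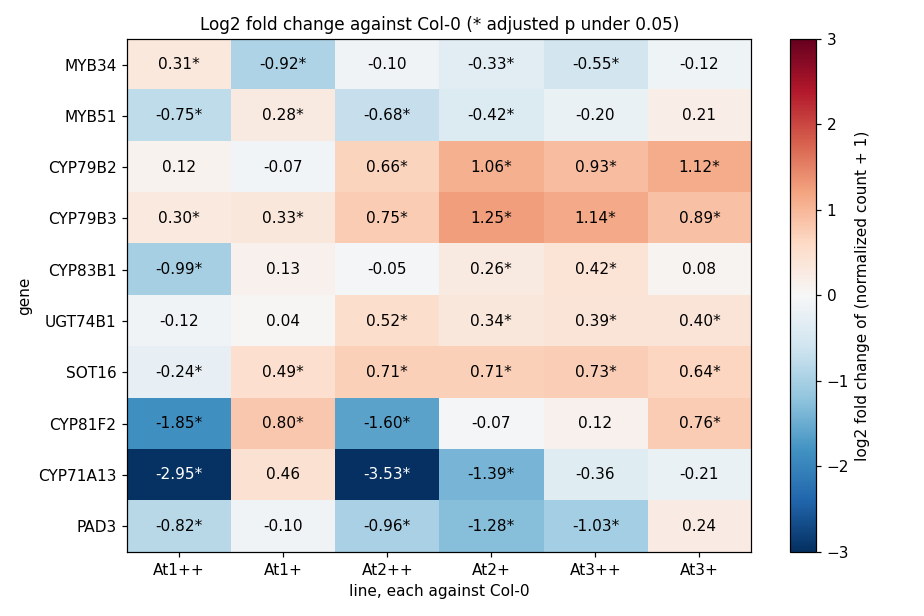
Log2 fold change of (normalized count + 1) of each of the 10 genes (rows) in each line against Col-0 (columns) from limma, with an asterisk where the adjusted p was under 0.05 and colours that end at -3 and 3. The rows of CYP79B2, CYP79B3, UGT74B1 and SOT16 are red in the AtIPCS2 and AtIPCS3 lines, and CYP81F2 and CYP71A13 are darkest blue in At1++ and At2++.

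The core enzymes that follow did not move alike. CYP83B1, the P450 that oxidizes indole-3-acetaldoxime, had 1704, 1532 and 1689.7 normalized counts in At1++, 3934, 3249 and 3531 in At1+, 3058, 3091 and 3317 in At2++ and 3694, 3967 and 4045 in At2+. It had 4164, 4439.8 and 4494 in At3++ and 3802 and 3139 in At3+, against 2884, 3561 and 3372 in Col-0. At1++ stood apart below every other library, At3++ and At2+ were above the Col-0 range, and the other lines overlapped it. CYP83B1 fell in At1++ with a log2 fold change of -0.99 (standard error 0.083, adjusted p = 5.23e-10), just short of the call, and was called there with edgeR at -1.004 and, in limma, without At1++ replicate 1 or 3 or Col-0 replicate 1, at -1.02, -1.01 and -1.08. It rose by 0.42 (adjusted p = 0.00025) in At3++ and by 0.26 (adjusted p = 0.0133) in At2+, while At1+, At3+ and At2++ gave 0.13 (adjusted p = 0.277), 0.084 (adjusted p = 0.686) and -0.048 (adjusted p = 0.658). Without At2+ replicate 3 or Col-0 replicate 1 the CYP83B1 adjusted p in At2+ was 0.0541 and 0.121.

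UGT74B1, the glucosyltransferase that makes desulfoglucosinolates, averaged 647 ± 32.1 normalized counts in At1++ and 727 ± 112 in At1+. Its mean was 1007 ± 28.2 in At2++ and 892 ± 88 in At2+, and 922 ± 74.5 in At3++ and 925 ± 61.3 in At3+, against 702 ± 54.8 in Col-0 (SD, n = 3, At3+ n = 2). The AtIPCS2 and AtIPCS3 lines stood above the Col-0 range of 641 to 746 and the AtIPCS1 lines overlapped it. The log2 fold change was 0.52 (standard error 0.091, adjusted p = 3.56e-05) in At2++, 0.34 (adjusted p = 0.00347) in At2+, 0.39 (adjusted p = 0.00138) in At3++ and 0.40 (adjusted p = 0.0126) in At3+, none of them called, and -0.12 (adjusted p = 0.337) in At1++ and 0.042 (adjusted p = 0.779) in At1+. Without At3+ replicate 1 or Col-0 replicate 1 the UGT74B1 adjusted p in At3+ was 0.2 and 0.0717.

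SOT16, the sulfotransferase that completes the core, had 777, 666 and 828 normalized counts in At1++ and 1455, 1146 and 1179 in At1+. It had 1445, 1439 and 1473 in At2++, 1349, 1465 and 1572 in At2+, 1457, 1455 and 1529 in At3++ and 1465 and 1317 in At3+, against 819.6, 974 and 879.8 in Col-0. All lines but At1++ were above the Col-0 range. SOT16 rose by 0.73 (standard error 0.088, adjusted p = 3.1e-07) in At3++, 0.71 (adjusted p = 2.62e-07) in At2++, 0.71 (adjusted p = 3.4e-07) in At2+, 0.64 (adjusted p = 7.52e-05) in At3+ and 0.49 (adjusted p = 0.000123) in At1+, and fell in At1++, at -0.24 (adjusted p = 0.0344). None of these was called, and the SOT16 adjusted p in At1++ was 0.231, 0.175 and 0.0673 without At1++ replicate 2, Col-0 replicate 2 and Col-0 replicate 3.

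CYP81F2, which hydroxylates the indole ring of the finished glucosinolate and is needed for its use in defence against fungi, had the widest range of means among the 8 glucosinolate members. It had 111, 69 and 92.3 normalized counts in At1++, 671, 537 and 499 in At1+, 97.7, 102 and 120.0 in At2++ and 258, 334 and 344 in At2+. It had 349.7, 363 and 344 in At3++ and 549 and 548 in At3+, against 287, 367 and 322 in Col-0. At1++ and At2++ were far below the Col-0 range, At1+ and At3+ above it, and At2+ and At3++ within or across it. CYP81F2 was called lower in At1++ with a log2 fold change of -1.85 (standard error 0.14, adjusted p = 8.71e-11) and in At2++ with -1.60 (standard error 0.14, adjusted p = 7.53e-10). It rose by 0.80 (adjusted p = 0.000108) in At1+ and by 0.76 (adjusted p = 0.00221) in At3+, and was 0.12 (adjusted p = 0.532) in At3++ and -0.067 (adjusted p = 0.731) in At2+. Both calls held under all the alternatives run.

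CYP71A13, which turns indole-3-acetaldoxime into the nitrile on the way to camalexin, was at low levels throughout. It had 5.18, 3.28 and 0 normalized counts in At1++, 41.8, 26.5 and 26.1 in At1+, 0.997, 1.04 and 0.96 in At2++ and 2.56, 24.3 and 6.64 in At2+. It had 16.3, 16.7 and 18 in At3++ and 16 and 22.4 in At3+, against 17.6, 22.4 and 27.2 in Col-0. At1++ and At2++ were below the Col-0 range, with 1 read in each At2++ library, and At2+ ran from near those lines up into the Col-0 range. Summed over libraries, CYP71A13 had 10 reads in At1++ and 3 in At2++, against 74 in Col-0, which gave ratios to Col-0 of 0.13 (95% exact interval 0.0601 to 0.254) and 0.0444 (0.0089 to 0.135). These intervals cover counting error only. The limma log2 fold change, which depends at such levels on the pseudocount of 1, was -2.95 (adjusted p = 9.75e-05) in At1++ and -3.53 (adjusted p = 6.4e-06) in At2++, both called. It was also called lower in At2+, at -1.39 (adjusted p = 0.0406), but that CYP71A13 adjusted p was 0.0638 with edgeR and 0.087 with DESeq2, and the change was -0.73 without At2+ replicate 1 (adjusted p = 0.29). Without At2+ replicate 3 or Col-0 replicate 1, 2 or 3 the adjusted p was 0.105, 0.0512, 0.0823 and 0.121, so this call rests on single libraries. The CYP71A13 changes in At1+, At3++ and At3+ were 0.46 (adjusted p = 0.581), -0.36 (adjusted p = 0.636) and -0.21 (adjusted p = 0.901). CYP71A13 and its neighbour CYP71A12 are 90.4% identical in coding sequence with a longest identical run of 59 bases, and reads that fit both could be split or dropped in counting, so the level of either is uncertain.

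PAD3, the P450 of the last step of camalexin synthesis, was low in 4 lines. It had 101, 90.3 and 84.5 normalized counts in At1++, 137, 155 and 164 in At1+, 83.7, 92.7 and 73.9 in At2++ and 56.4, 70.7 and 74.1 in At2+. It had 89.7, 61.8 and 89.9 in At3++ and 195 and 190.2 in At3+, against 145, 172 and 174 in Col-0. At1++, At2++, At2+ and At3++ lay wholly below the Col-0 range, At1+ overlapped it, and At3+ lay above it. PAD3 was called lower in At2+ with a log2 fold change of -1.28 (standard error 0.15, adjusted p = 1.02e-07) and in At3++ with -1.03 (standard error 0.15, adjusted p = 3.69e-06), and fell, at -0.96 (adjusted p = 4.93e-06) in At2++ and -0.82 (adjusted p = 6.07e-05) in At1++. The changes in At1+ and At3+ were -0.10 (adjusted p = 0.652) and 0.24 (adjusted p = 0.44). In At2++ PAD3 was called without At2++ replicate 2 or Col-0 replicate 1, at -1.04 and -1.05. The PAD3 call in At3++ was lost without At3++ replicate 2, Col-0 replicate 2 or Col-0 replicate 3, at -0.85, -0.99 and -0.98, each with an adjusted p under 0.05. PAD3 fell in the AtIPCS2 and AtIPCS3 lines At2++, At2+ and At3++ while CYP79B2 and CYP79B3 rose in the same lines.

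For each gene the groups were ordered by their mean level and neighbours in that order compared in the same fit, in which all 21 pairs of groups were tested per gene. CYP79B3 averaged 3126 in At2+ and 2892 in At3++, which did not differ beyond their spread (adjusted p = 0.253), followed by At3+, At2++, At1+, At1++ and Col-0. In that order At3++ differed from At3+, At2++ from At1+ and At1++ from Col-0, and the other neighbours did not. CYP79B2 ran from At3+ through At2+, At3++ and At2++ to At1++, Col-0 and At1+, and only At2++ and At1++ differed as neighbours (adjusted p = 0.000962). CYP81F2 ran from At1+ and At3+ through At3++, Col-0 and At2+ to At2++ and At1++, with breaks between At3+ and At3++ (adjusted p = 0.00417) and between At2+ and At2++ (adjusted p = 1.17e-08). PAD3 had At3+, Col-0 and At1+ on one side and At1++, At2++, At3++ and At2+ on the other, with a single break between neighbours (adjusted p = 0.000205). On the lower side At2+ was still below At1++, which is not its neighbour, at -0.46 (adjusted p = 0.0171). CYP83B1 had a single break, between At2++ and At1++ (adjusted p = 3.5e-09), and UGT74B1 a single one, between At2+ and At1+ (adjusted p = 0.00756). SOT16 broke between At1+ and Col-0 and between Col-0 and At1++. MYB34 broke between At1++ and Col-0 and between At3++ and At1+, MYB51 between At2+ and At2++, and CYP71A13 between At2+ and At1++. Groups further apart in the order could differ with no break between them, as Col-0 and At2+ did for MYB51 (adjusted p = 0.000181). Of the 21 pairs per gene, from 12 (CYP83B1, UGT74B1 and CYP71A13) to 18 (CYP79B3) had an adjusted p under 0.05, with 16 for MYB51.

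The lines of an isoform were compared with each other as labelled. In At1++ against At1+, 1 member was called higher and 4 lower, against 5.63% and 5.44% of all genes. MYB34 was the one called higher, at 1.24 (standard error 0.12, adjusted p = 6.49e-09). CYP71A13 at -3.41 (adjusted p = 1.08e-05), CYP81F2 at -2.65 (standard error 0.14, adjusted p = 7.84e-14), CYP83B1 at -1.12 (standard error 0.083, adjusted p = 3.9e-11) and MYB51 at -1.03 (standard error 0.082, adjusted p = 1.43e-10) were the 4 called lower. The call of MYB51 was lost without At1++ replicate 2 or 3 or At1+ replicate 2, at -0.99, -0.98 and -0.99, each with an adjusted p under 0.05. SOT16 and PAD3 fell, at -0.73 (adjusted p = 1.67e-07) and -0.72 (adjusted p = 0.000205). CYP79B2, CYP79B3 and UGT74B1 stood at 0.19 (adjusted p = 0.184), -0.032 (adjusted p = 0.686) and -0.16 (adjusted p = 0.156). By adjusted p alone, 1 rose and 6 fell, against 24.7% and 24.2% of all genes. AtIPCS1, the transgene of both lines, was itself higher in At1++.

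In At2++ against At2+, 0 members were called higher and 2 lower, against 1.11% and 2.57% of all genes. The 0 was the same with edgeR and DESeq2, and 1 member was higher at an unadjusted p under 0.05 in limma. CYP81F2 at -1.53 (standard error 0.14, adjusted p = 1.17e-08) and CYP71A13 at -2.14 (adjusted p = 0.00606) were the members called lower. The CYP71A13 adjusted p was 0.068 without At2+ replicate 2 and 0.0522 with only these libraries in the fit. CYP79B3, CYP79B2, CYP83B1 and MYB51 fell, at -0.50 (adjusted p = 9.03e-07), -0.40 (adjusted p = 0.0164), -0.31 (adjusted p = 0.00971) and -0.27 (adjusted p = 0.022). The adjusted p of CYP79B2 was between 0.0516 and 0.0737 without At2++ replicate 1 or 2 or At2+ replicate 2 or 3, and that of MYB51 between 0.0523 and 0.0772 without At2+ replicate 1 or 2 or At2++ replicate 3. MYB34, UGT74B1, SOT16 and PAD3 stood at 0.24, 0.18, -0.0067 and 0.32, with adjusted p-values of 0.183, 0.178, 0.97 and 0.132. By adjusted p alone, 0 members rose and 6 fell in At2++ against At2+, against 9.93% and 10.5% of all genes. At2+ replicate 1 and At2++ replicate 2 stood furthest from the others of their groups over all genes. Without both, chosen after the values were seen, CYP81F2 was -1.64 and CYP71A13 -2.81, and both were still called.

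In At3++ against At3+, 0 members were called higher and 1 lower, against 2.94% and 0.774% of all genes. The 0 was the same with edgeR and DESeq2, and 2 members were higher at an unadjusted p under 0.05 in limma. PAD3 was the member called lower, at -1.27 (standard error 0.16, adjusted p = 2.16e-06). CYP81F2, MYB34 and MYB51 fell, at -0.64 (adjusted p = 0.00417), -0.43 (adjusted p = 0.0237) and -0.41 (adjusted p = 0.00185), and CYP83B1 and CYP79B3 rose by 0.34 (adjusted p = 0.00958) and 0.25 (adjusted p = 0.00667). By adjusted p alone, 2 members rose and 4 fell, against 13% and 9% of all genes. PAD3 stayed called, and CYP81F2 kept an adjusted p under 0.05, under all the alternatives run. The others depended on single libraries, with n = 2 in At3+. Without At3+ replicate 3 the adjusted p was 0.299 for CYP83B1, 0.069 for CYP79B3 and 0.236 for MYB34, and without At3+ replicate 1 it was 0.0533 for MYB51. The adjusted p of MYB34 was also 0.0678 and 0.0529 without At3++ replicate 2 or 3. CYP79B2, UGT74B1, SOT16 and CYP71A13 stood at -0.19, -0.0062, 0.091 and -0.15, with adjusted p-values of 0.327, 0.976, 0.556 and 0.896. CYP81F2 and MYB51 were thus lower, at an adjusted p under 0.05, in the line labelled with 2 plus signs for all 3 isoforms. How many of all genes were so was not counted. Each label is a single line, so line and transgene level cannot be told apart. The change between the lines was also compared between isoforms. It differed by at least 1 on the log2 scale with an adjusted p under 0.05 for 3 members between AtIPCS1 and AtIPCS2, for 4 between AtIPCS1 and AtIPCS3 and for 1 between AtIPCS2 and AtIPCS3, against 6.75%, 7.92% and 5.39% of all genes.

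**Figure D3:**
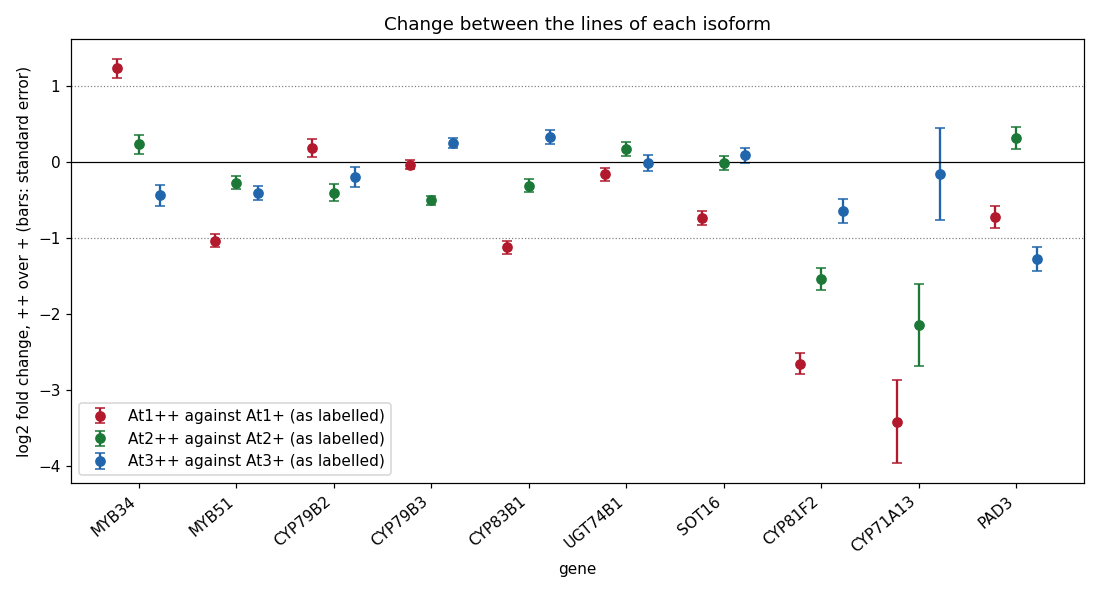
Log2 fold change of (normalized count + 1) between the lines of an isoform, ++ over + as labelled, for the 10 genes, with the standard error from limma and dotted lines at -1 and 1. CYP81F2, MYB51 and CYP71A13 are below 0 for all 3 isoforms, but CYP71A13 only by -0.15 (standard error 0.61) for AtIPCS3. MYB34 is above 1 for AtIPCS1 alone.

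Over the 20 distinct libraries, Pearson correlations of log2(normalized count + 1) between members described which genes moved together. The 45 pairs ran from -0.72 to 0.91 with a median of 0.13, and 25 were positive. These points share libraries and lines, so the values are a description only. MYB51 went with CYP81F2 (r = 0.91) and with CYP71A13 (r = 0.86), CYP81F2 with CYP71A13 (r = 0.87), CYP79B2 with CYP79B3 (r = 0.90) and UGT74B1 with SOT16 (r = 0.87). MYB34 ran against CYP83B1 (r = -0.72) and CYP81F2 (r = -0.70), and CYP79B3 against PAD3 (r = -0.62). Among 16123 genes with a mean of at least 50, the genes most like CYP79B2 over the 20 libraries were PAL1 (r = 0.93), 4CL1 (r = 0.92) and ABCG6 (r = 0.91). The genes most like PAD3 were AT2G44770 (r = 0.94), AT5G16240 (r = 0.93) and CYP71B24 (r = 0.92).

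Most other genes of the camalexin branch and a related pathway were lower in At1++ and At2++, as CYP71A13 was. Of 8 such genes, 6 were called lower in At1++ and 0 in At1+, 5 were in At2++ and 1 in At2+, and 1 was in At3++ and 0 in At3+, all against Col-0 with limma. The shares of all genes called lower were 5.02% in At1++ and 1.96% in At1+ for AtIPCS1. For AtIPCS2 they were 4.91% in At2++ and 2.69% in At2+, and for AtIPCS3 2.31% in At3++ and 1.18% in At3+. The 0 in At1+ and At3+ was also found with edgeR and DESeq2 and stood beside 1 lower gene in each at an unadjusted p under 0.05, and in At1+ 1 gene was called higher with edgeR, with DESeq2 and with only the libraries compared in the fit, against 0 in limma over all groups. The list median was -2.29 in At1++ and -2.27 in At2++, against medians over all genes of -0.0035 and -0.015. FOX1, an oxidase of the related indole carbonyl nitrile pathway, averaged 18 ± 17.3 in At1++ and 35.5 ± 6.24 in At2++, against 333 ± 11.1 in Col-0 (SD, n = 3 each), with log2 fold changes of -4.50 (adjusted p = 1.15e-11) and -3.20 (adjusted p = 3.7e-09). CYP71A12, which acts beside CYP71A13, averaged 45.5 ± 38.3 in At1++ and 92.6 ± 10.4 in At2++, against 668 ± 77.7 in Col-0 (SD, n = 3 each), with -4.14 (adjusted p = 1.12e-11) and -2.84 (adjusted p = 6.98e-09). CYP82C2, a P450 of the same pathway as FOX1, stood at -3.60 (adjusted p = 4.16e-06) in At1++ and -3.52 (adjusted p = 3.75e-06) in At2++. WRKY33, an activator of CYP71A13 and PAD3 that is named here for that role after its values were seen, averaged 232 ± 31.6 in At1++ and 905 ± 64.8 in At1+. Its mean was 315 ± 25.6 in At2++ and 423 ± 42.4 in At2+, and for AtIPCS3 507 ± 44.3 in At3++ and 613 ± 39.4 in At3+, against 629.5 ± 33.5 in Col-0 (SD, n = 3, At3+ n = 2). It fell in At1++, At2++, At2+ and At3++, at -1.45 (adjusted p = 5.8e-12), -0.998 (adjusted p = 3.38e-09), -0.58 (adjusted p = 2.36e-05) and -0.31 (adjusted p = 0.0107), and rose in At1+, at 0.52 (adjusted p = 0.000168), while At3+ gave -0.038 (adjusted p = 0.896). PAD3 also fell in At1++, At2++, At2+ and At3++. It was called in At2+ and At3++, and WRKY33 was called in At1++ alone. Whether the changes of these genes are linked was not tested.

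Some genes of this list were higher in other lines, among them FOX1 and CYP82C2 of the indole carbonyl nitrile pathway. The members CYP71A13 and PAD3 did not pass in At3+, at -0.21 (limma adjusted p = 0.901) and 0.24 (adjusted p = 0.44). In At3+, 3 of the 8 were called higher: CYP82C2 at 1.98 (adjusted p = 0.0307), CYP71A12 at 1.66 (adjusted p = 0.000974) and FOX1 at 1.12 (adjusted p = 0.0394), against 0.594% of all genes. Leaving out any library of At3+ or Col-0 reduced that count to 1, as did a pseudocount of 0.1, no filter or the replicate block. In At2+, 1 was called higher, CYP82C2 at 1.31 (adjusted p = 0.0433), against 4.76% of all genes, and limma called 0 after leaving out any library of At2+ or Col-0, with a pseudocount of 0.1, with no filter and with the replicate block. GSTU4, a glutathione S-transferase, was the gene called lower in At2+ and At3++, at -2.34 (adjusted p = 1.01e-10) and -1.48 (adjusted p = 3.92e-07), and it fell in At1++ and At2++ as well, at -1.80 (adjusted p = 1.09e-08) and -2.06 (adjusted p = 6.5e-10). Between the lines of an isoform, 6 of the 8 were called lower in At1++ against At1+, 4 in At2++ against At2+ and 1 in At3++ against At3+, against 5.44%, 2.57% and 0.774% of all genes. The count in At3++ against At3+ was 2 with edgeR, with DESeq2, with identical libraries kept and with only the libraries compared. Between these lines 0 were called higher with limma, edgeR or DESeq2, with 0, 0 and 1 higher at an unadjusted p under 0.05 in limma. FOX1 was among those called lower for all 3 isoforms, at -4.83 (adjusted p = 2.27e-12), -2.60 (adjusted p = 8.67e-07) and -1.77 (adjusted p = 0.000455).

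**Figure D4:**
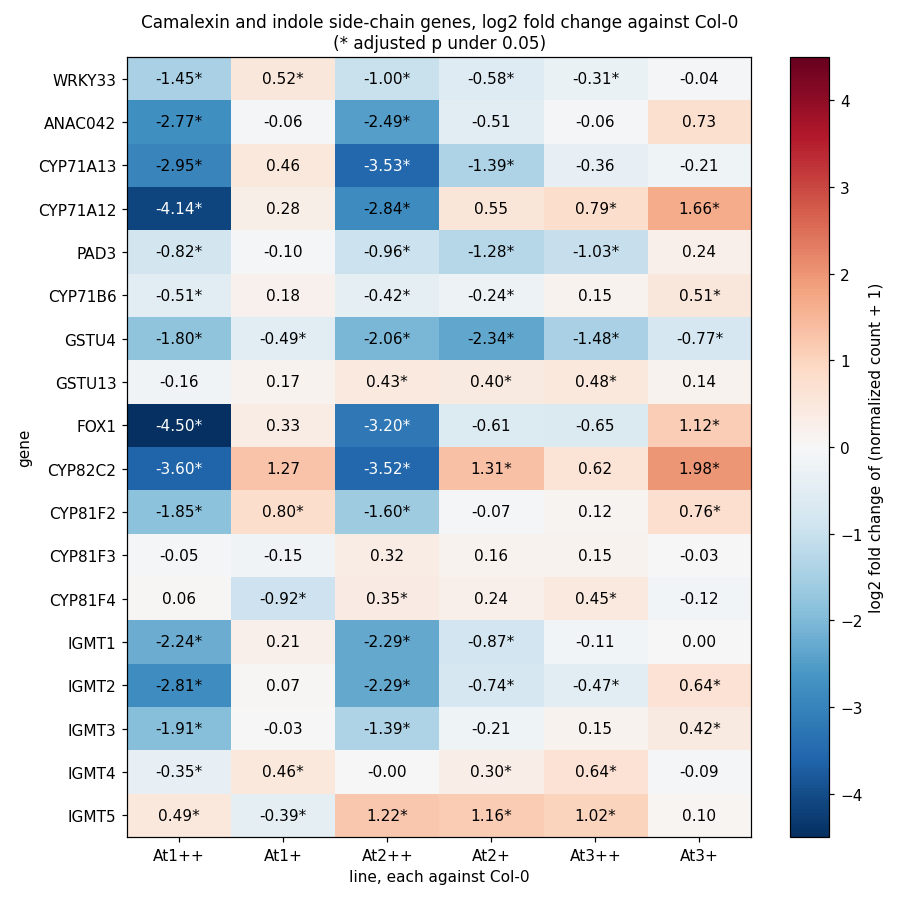
Log2 fold change of (normalized count + 1) against Col-0 in each of the 6 lines, with an asterisk where limma's adjusted p was under 0.05. Rows are genes of the camalexin branch, FOX1 and CYP82C2 of the related pathway, and genes that modify the indole glucosinolate side chain. Most cells of At1++ and At2++ from WRKY33 to IGMT3 are blue, but GSTU13 and CYP81F3 are not in At2++, and CYP81F4 is in neither. GSTU4 and PAD3 are darkest in At2+. IGMT5 is above 1 in At2++, At2+ and At3++.

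Of 24 other indole glucosinolate genes 22 were tested, and MYC2 and CYP81F1 are not analysed here. In At1++, 0 of the 22 were called higher and 3 lower, in At2++ 2 higher and 3 lower, in At2+ 2 higher and 0 lower, and in At3++ 1 higher and 0 lower, while At1+ and At3+ had none with limma, edgeR or DESeq2. Of all genes, 5.02% were called lower in At1++ and 4.91% in At2++, and 5.9% were called higher in At2++, 4.76% in At2+ and 4.04% in At3++, so that the 1 or 2 of 22 called higher were near the share of all genes. At an unadjusted p under 0.05 in limma, 7 were higher and 8 lower in At1+, and 7 and 2 in At3+. The 3 called lower in At1++ were IGMT2, IGMT1 and IGMT3, which methylate the hydroxyl group that CYP81F2 adds, and each was also called lower in At2++. IGMT1 averaged 464 ± 85.6 in At1++ and 443 ± 25.8 in At2++, against 2172 ± 92.9 in Col-0 (SD, n = 3 each), with log2 fold changes of -2.24 (adjusted p = 1.82e-15) and -2.29 (adjusted p = 1.09e-15). IGMT2 stood at -2.81 (adjusted p = 2.4e-12) in At1++ and -2.29 (adjusted p = 7.39e-11) in At2++, and IGMT3 at -1.91 (adjusted p = 1.42e-12) and -1.39 (adjusted p = 3.73e-10). IGMT1 to IGMT4 are 82.0 to 93.4% identical in coding sequence, so the division of reads between them is uncertain. IGMT5, another methyltransferase of the indole side chain, was called higher in At2++ at 1.22 (adjusted p = 3.04e-13). IGMT5 was also called higher in At2+ at 1.16 (adjusted p = 1.41e-12) and in At3++ at 1.02 (adjusted p = 2.14e-11). APK2, a kinase that makes the sulfate donor of SOT16, was called higher in At2+ at 1.04 (adjusted p = 5.75e-10). GTR1, a glucosinolate importer named after its values were seen, was called higher in At2++ at 1.03 (adjusted p = 1.23e-05). The calls of 2 higher fell to 1 in At2+ without Col-0 replicate 1, and in At2++ without Col-0 replicate 1 or At2++ replicate 3, both counts were 3 without Col-0 replicate 3, and the call in At3++ was lost without Col-0 replicate 2.

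None of 11 genes of tryptophan synthesis, which supplies both branches, was called in any line with limma, edgeR or DESeq2. With limma, 0.594 to 5.9% of all genes were called per direction and line against Col-0. At an unadjusted p under 0.05 in limma, 2 were higher and 8 lower in At1++, 0 and 1 in At1+, 2 and 8 in At2++, 1 and 2 in At2+, 0 and 5 in At3++, and 4 and 0 in At3+. The list medians were -0.38 in At1++ and -0.27 in At2++. In these lines 7 and 8 of the 11 fell at an adjusted p under 0.05, against 19% and 26.2% of all genes. There 1 and 2 rose, against 19.8% and 25.8%. The aliphatic glucosinolate genes, which make the methionine-derived compounds, moved otherwise. Of all genes, 4.06% were called higher in At1++, 5.9% in At2++, 4.76% in At2+ and 4.04% in At3++, and 1.96% were called lower in At1+. Of these 14 genes, 3 were called higher in At1++ (list median 0.51) and 9 lower in At1+ (median -1.65). In At2++, 11 were called higher (median 1.62), and in At2+ 6 (median 0.95). In At3++, 5 were called higher (median 0.47), and none was called in At3+ (median -0.10). The 0 in At3+ was the same with edgeR and DESeq2, with 3 higher and 2 lower at an unadjusted p under 0.05 in limma. Without Col-0 replicate 1 the count in At3++ was 3. CYP79F1, which opens the aliphatic core, stood at 3.08 (adjusted p = 6.64e-15) in At2++ and -2.70 (adjusted p = 2.92e-13) in At1+.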

How the data were processed

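RNA from whole seedlings of 6 over-expressing lines and Col-0 was sequenced by the authors from stranded mRNA libraries. Per the study's methods, trimming by the authors used Trimmomatic, alignment to the Araport genome used STAR, HTSeq gave the counts per gene, and DESeq2 normalized them. The strand setting of the counting is not given in the sources used here. The deposited values are a signal, reads divided by a size factor per library. Whole reads were recovered from the steps between values for 100% of the values (tolerance 0.01 reads).

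Libraries with identical values were averaged. For the 22222 genes whose mean was 1 or more, log2(value + 1) was fitted in limma 3.58.1 (R 4.3.3) with a variance trend and the 7 groups, and adjusted p-values are by Benjamini-Hochberg over all genes of a comparison. The fit was tested on simulated data. The alternatives were edgeR 4.0.16 and DESeq2 1.42.0 on the recovered reads, no filter, a mean of at least 10, a pseudocount of 0.1, a replicate block, a fit of the compared libraries alone, rescaling over nuclear genes, no minimum fold, identical libraries kept, each library left out, and, added after the data were seen, both AtIPCS2 libraries furthest from their groups left out.

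The members and the lists (camalexin, other indole glucosinolate, tryptophan and aliphatic glucosinolate genes, and seed, clock, root and leaf markers) were chosen with earlier results of these data known. Named were all members, up to 3 called genes per list and comparison with the largest change, the 3 genes most like CYP79B2 and PAD3, and the AtIPCS genes, with WRKY33 and GTR1 added after their values were seen. Upstream sequences and gene models are from RefSeq on TAIR10.1. Every value carries the counting error of 12733113 to 17210244 reads per library.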

Additional observations from a re-analysis of the deposited data

Results flagged for a closer look

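The change between the lines of an isoform, ++ minus + as labelled, was compared between isoforms by a contrast in the same limma fit. A gene was taken up here where that difference was 1 or more in size on the log2 scale and its adjusted p was below 0.05. Of all genes, 6.75% met this for AtIPCS1 minus AtIPCS2, 7.92% for AtIPCS1 minus AtIPCS3 and 5.39% for AtIPCS2 minus AtIPCS3, and 3, 4 and 1 of the 10 members did.

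MYB34, which was higher in At1++ than in At1+, differed by 1.002 (standard error 0.17, adjusted p = 9.97e-05) between AtIPCS1 and AtIPCS2 and by 1.67 (standard error 0.18, adjusted p = 1.47e-07) between AtIPCS1 and AtIPCS3. CYP81F2, lower in the ++ line of each isoform, was lower by more in AtIPCS1, with differences of -1.12 (standard error 0.20, adjusted p = 0.000145) against AtIPCS2 and -2.01 (standard error 0.21, adjusted p = 6.92e-08) against AtIPCS3. CYP83B1, which fell in At1++ against At1+ and rose in At3++ against At3+, differed by -1.45 (standard error 0.12, adjusted p = 2.51e-09). CYP71A13, a gene of few reads, differed by -3.26 (standard error 0.81, adjusted p = 0.00356). PAD3 differed by -1.03 (standard error 0.21, adjusted p = 0.000473) between AtIPCS1 and AtIPCS2 and by 1.58 (standard error 0.22, adjusted p = 7.97e-06) between AtIPCS2 and AtIPCS3. The AtIPCS2 and AtIPCS3 labels run against the order of their mean transgene transcript, though for AtIPCS3 that difference did not pass in limma. With 1 line for each label, isoform, transgene level and line cannot be told apart.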

How the results depend on the processing

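Each member's change in the 9 comparisons was recomputed under every alternative, which gave 1312 values on the same side of the call, 21 no longer called, 9 newly called and 18 of the opposite sign or 0. The numbers called higher and lower against Col-0 with no minimum fold were 2 and 6 in At1++, 4 and 1 in At1+, 4 and 4 in At2++, 5 and 4 in At2+, 5 and 2 in At3++ and 5 higher in At3+. Within isoforms they were 6 lower in At2++ against At2+, and 2 higher and 4 lower in At3++ against At3+. The count called lower in At2+ was 1 in place of 2 with edgeR, with DESeq2, with no filter, with a pseudocount of 0.1 and without the pair of AtIPCS2 libraries left out together. With only the libraries compared, 1 member in place of 2 was called lower in At2++ against At2+. The cause of these changes was not tested.

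Leaving out each library in turn gave 2 to 3 called lower in At1++, 0 to 1 lower in At1+, 2 to 3 lower in At2++, 1 to 2 higher and 1 to 2 lower in At2+, 0 to 1 higher in At3+, 1 to 2 higher and 0 to 1 lower in At3++, 3 to 4 lower in At1++ against At1+, and 1 to 2 lower in At2++ against At2+. Changes that crossed 0 were all small in the full fit and had an adjusted p of at least 0.05. With each library left out in turn, CYP79B2 ran from -0.23 to 0.042 in At1+ and from -0.042 to 0.23 in At1++. UGT74B1 ran from -0.080 to 0.12 in At1+ and from -0.074 to 0.061 in At3++ against At3+. CYP81F2 ran from -0.15 to 0.064 in At2+. CYP83B1 ran from -0.14 to 0.016 in At2++ and from -0.054 to 0.22 in At3+. CYP71A13 ran from -0.44 to 0.018 in At3+ and from -0.38 to 0.080 in At3++ against At3+. CYP79B3 ran from -0.086 to 0.014 in At1++ against At1+. SOT16 ran from -0.063 to 0.047 in At2++ against At2+. Without the pair of AtIPCS2 libraries CYP81F2 stood at 0.064 in At2+.

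The replicate numbers did not pair the libraries: over 45 pairs of same-numbered libraries the correlation of deviations from the group means ran from -0.26 to 0.26, with 2 over 0.1. With the replicate block, 2 members were called lower in At1++ and in At2++, and no count of members called changed in any of the 9 comparisons. Of the list with camalexin genes, 1 gene in place of 3 was called higher in At3+, and 0 in place of 1 in At2+. Depth limits CYP71A13 above all, with 3 reads summed over the At2++ libraries and 94 over those of At1+.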
